A study of Mus musculus with 12 samples.

Results

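The livers of male and female mice without OXR1A were compared in 6 RNA sequencing libraries, 3 from knockout males and 3 from knockout females. They are 6 of the 12 libraries of the study, which also holds 3 wild-type males and 3 wild-type females. All animals were 12 months old and the tissue was labelled liver. The genotype label is OXR1A knockout or WT, so the absence of OXR1A is shared by both groups compared here. The labels used here give neither the strain nor how the knockout was made, and they do not say whether the 3 libraries of a group came from separate animals. P-values therefore reflect only how far these samples vary, and part of that variation may be technical. The title of the study speaks of fatty liver in males, hormone response and lipid metabolism, and the comparison asks how far the 2 sexes differ in the absence of OXR1A. Levels are in FPKM, fragment counts divided by gene length and library size. Of 18560 genes in the table, 17828 lie on autosomes, and 11166 of those had at least 1 FPKM in at least 3 of the 12 libraries and were tested. X-linked and Y-linked genes were left out, since they differ between the sexes by copy number.

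OXR1A is one of the proteins encoded by Oxr1, whose TLDc domain is linked to protection from oxidative damage. Mouse liver is one of the tissues in which males and females differ most in gene expression. Growth hormone is released in separate pulses in males and more evenly in females. Its receptor on hepatocytes activates the transcription factor STAT5 in the same rhythm, and further factors such as BCL6 and CUX2 act with it. The genes known to depend on this rhythm include major urinary proteins and several cytochromes P450 in males, and sulfotransferases, flavin monooxygenases and other cytochromes P450 in females.

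The knockout libraries had FPKM sums of 526203 to 600972 and relative depths of 0.95 to 1.25, with wild-type female 1 as 1. Xist, transcribed from the inactive X chromosome, stood at 29.5, 19.2 and 27.9 FPKM in knockout females 1, 2 and 3 and at 0.08, 0.05 and 0.82 in knockout males 1, 2 and 3. Eif2s3y, a Y-linked translation factor gene, stood at 35.0, 35.6 and 23.1 FPKM in the males and at 0.85, 0.03 and 0 in the females. Knockout male 3 thus held 3.21% of the female mean of Xist, and knockout female 1 held 2.72% of the male mean of Eif2s3y. Wild-type female 1 also passed the limit of 0.5 FPKM used for such traces. These 3 are called the traced libraries below, and results are given with and without them. Their part in the results was not tested. Knockout male 2 stood apart in another way. Its lymphocyte markers summed to 1251 FPKM against 92.0 to 354.2 in the other knockout libraries, its interferon genes to 1267 against 329.1 to 581.7, and its Mup transcripts made up 1.32% of FPKM against 3.54% and 7.75% in the other males. Defining hepatocyte genes were abundant in every knockout library, with Alb at 31719.5 FPKM or more. Oxr1 stood at 22.1 to 25.0 FPKM in knockout males and at 19.7 to 21.0 in knockout females, a value over all isoforms that does not check the loss of OXR1A.

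Between knockout males and females 401 genes differed by limma at an adjusted p under 0.05, 3.59% of those tested. Of these, 179 (1.6%) were higher in males and 222 (1.99%) in females, and 87 and 91 of them had a log2 difference above 1 in size. The scale is log2(FPKM + 1) throughout, males minus females, and it understates the change of genes with low values. The median difference over all tested genes was -0.01. Without adjustment 1727 genes had p under 0.05. The 3 male and 3 female values did not overlap in 22.0% of all tested genes in the knockout and in 40.1% in wild type. Among the 401 genes called in the knockout they did not overlap in 400. A lack of overlap in a called gene is therefore given below as a description and adds no support to its call. The count depended on single libraries. It was 221 without knockout male 1, 186, 252 and 235 without knockout female 1, 2 and 3, and 602 without wild-type male 2, which serves here only in the estimate of the spread. When the traced libraries were left out, 114 genes were called, 52 higher in males and 62 in females, from 2 male and 2 female knockout libraries.

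The same contrast in the wild-type mice called 1468 genes (13.1%), 253 higher in males (2.27%) and 1215 in females (10.9%), around a median of -0.21 over all genes. Scaling the libraries by median ratios moved that median by 0.21 and gave 534 and 495 genes. In the knockout, that scaling gave 212 and 199. Of the genes higher in knockout males, 118 were also higher in wild-type males, which is 65.9% of the knockout list and 46.6% of the wild-type list. Of the genes higher in knockout females, 177 were also higher in wild-type females, 79.7% of the knockout list and 14.6% of the wild-type list. In 0 genes were the calls opposite. The test of the difference between the 2 sex differences called 3 genes, 0.0269% of those tested, and 1018 at an unadjusted p under 0.05. The knockout call of the other genes, where the wild type gave none, is therefore not shown to be particular to the knockout.

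**Figure D1:**
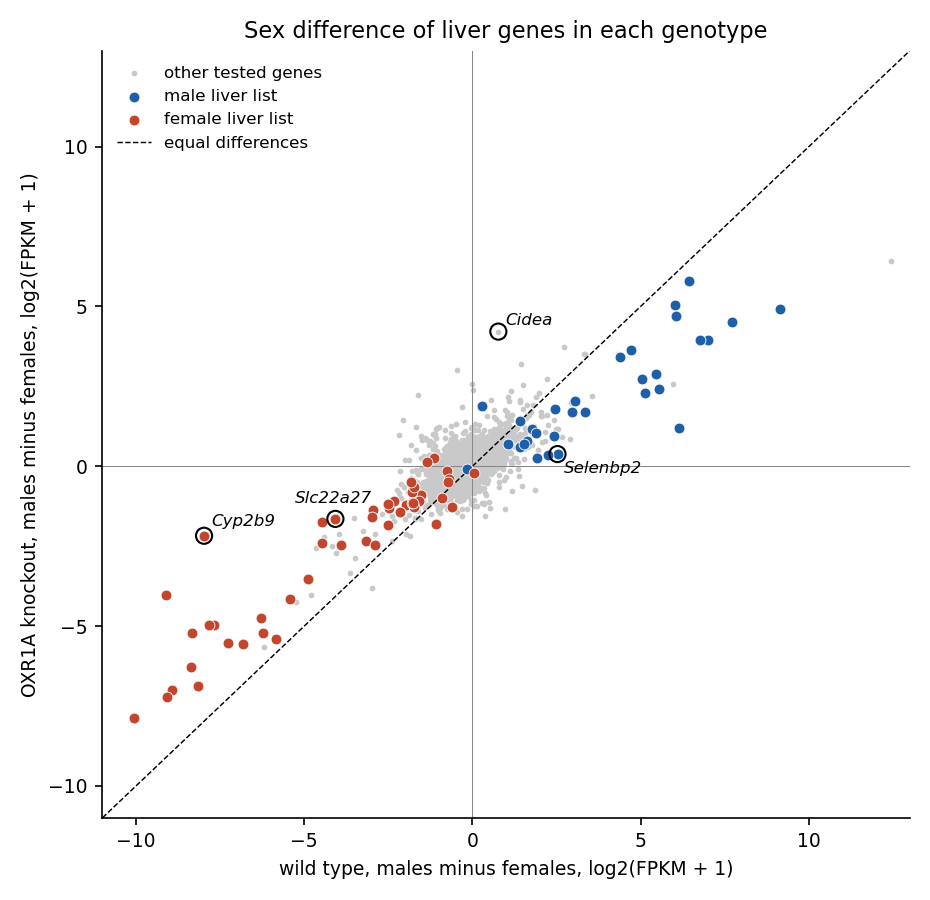
Sex difference of every tested gene in wild type (horizontal axis) and in the OXR1A knockout (vertical axis), males minus females on log2(FPKM + 1), with the male and female liver gene lists in colour, the 3 genes of the difference test and Cidea circled, and a dashed line of equal differences. Most list members lie between the dashed line and 0: the size of the difference was smaller in the knockout in 29 of 31 genes of the male list and in 44 of 48 of the female list. The same count was not made over all tested genes, and the lists were drawn up with earlier results of these data known. The test of the difference itself called only the 3 circled genes.

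A list of 48 genes known to be higher in female mouse liver held 37 that were higher in knockout females and 0 that were higher in males, against 1.99% of all tested genes higher in females. The 3 values of each sex did not overlap in 40 of the 48, beside 22.0% of all tested genes, and the list's median difference was -1.70. In wild type 44 were higher in females, with a median of -2.93. With the traced libraries removed, 21 were called, and without single knockout libraries 28 to 37. The list was drawn up with earlier results of these data known, as were all lists here, so the counts are a description.

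A Cyp3a gene, Cyp3a41a, had the largest difference towards females. The Cyp3a genes encode cytochromes P450 that hydroxylate steroids and drugs. In all that follows, values are FPKM in libraries 1, 2 and 3 in this order. Cyp3a41a (Entrez gene 53973, GRCm38 chr5:145694049-145720136) was listed at 0, 3.39 and 129 in knockout males and at 1804, 1288 and 3208 in knockout females (log2 difference -7.88, SE 1.25, adjusted p = 0.00467). Each female library lay above each male one, which was a condition for choosing this gene. Knockout male 3 was the highest male, at 6.16% of the female mean. Cyp3a16 stood at 0.18, 0.16 and 9.42 in males and at 142, 9.61 and 292 in females (log2 difference -4.98, SE 1.06, adjusted p = 0.0246), and Cyp3a44 at 0.24, 0.43 and 14.2 in males and 74.8, 33 and 322 in females (log2 difference -4.97, SE 0.93, adjusted p = 0.0126). Knockout female 2 was the lowest female for both genes, and its Cyp3a16 lay close to that of knockout male 3. Cyp3a41b, the near-identical neighbour of Cyp3a41a, stood at 1.62, 0.27 and 28 in males and 217, 24.1 and 924 in females (log2 difference -5.23, SE 1.23, adjusted p = 0.038), and its groups overlapped. Of 8 tested Cyp3a genes 4 were called, all higher in females, beside 1.99% of all tested genes. These 4 lie in a row on chr5:145436309-145805891 in GRCm38. Reads of such near-identical copies can be divided among them, so the separate values of the Cyp3a, Cyp2b, Cyp2c, Cyp4a, Sult2a, Mup, Serpina1, Saa and Orm genes are uncertain. Cyp3a16 lost its call without knockout male 1 or 2 or knockout female 1 or 3 (adjusted p = 0.0718 to 0.114). Cyp3a44 lost its call without knockout male 1 (adjusted p = 0.0575). Cyp3a41b lost its call without knockout male 1 or 2, knockout female 1 or 3, wild-type male 1 or 3 or wild-type female 1, 2 or 3 (adjusted p = 0.0507 to 0.142). Cyp3a16 (0.0756) and Cyp3a41b (0.0704) lost the call when the traced libraries were left out (adjusted p in brackets), and Cyp3a41a and Cyp3a44 kept it.

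The Cyp2c genes, cytochromes P450 of fatty acid and drug oxidation, were higher in females in 6 of 13 tested members. Over all tested genes 1.99% were higher in females. Cyp2c69 (Entrez gene 100043108, GRCm38 chr19:39842660-39886769) stood at 3.77, 2.55 and 55.4 in knockout males and at 573, 618 and 1276 in knockout females (log2 difference -6.29, SE 0.79, adjusted p = 0.00106). Cyp2c40 stood at 6.09, 3.15 and 27.1 in males and 247, 512 and 345 in females (log2 difference -5.23, SE 0.57, adjusted p = 0.000366). In both genes the sexes did not overlap and knockout male 3 was the highest male. Differences were smaller in Cyp2c68 (164, 165 and 194 in males against 324, 457 and 397 in females, log2 difference -1.16), Cyp2c39 (log2 difference -1.31) and Cyp2c38 (log2 difference -0.91). Cyp2c70, which converts bile acids to muricholic acids in mice, stood at 143, 175 and 149 in males and at 369, 414 and 472 in females (log2 difference -1.42, SE 0.15, adjusted p = 0.000366), while in wild type the difference of -0.46 did not pass (adjusted p = 0.0675). For Cyp2c70 the difference between genotypes did not pass either (adjusted p = 0.314). These Cyp2c genes and the neighbouring Pdlim1 are 7 of 11 tested genes of chr19:39347346-40271616, a stretch whose ends were set by called genes. Cyp2c69, Cyp2c40, Cyp2c68, Cyp2c38 and Cyp2c70 stayed called without the traced libraries, and Cyp2c39 (0.0596) did not (adjusted p in brackets).

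The windows of 250 bases before the start of 5 of these Cyp genes and of A1bg, another of the genes with the largest differences, are printed to compare the Cyp copies with each other and with a gene elsewhere. They were picked with their letters in view. They come from RefSeq (GRCm38.p6), 5′ to 3′ on the strand of the gene. Capitals mark matches to CAAAGTCCA, a word of the kind bound by HNF4A, a hepatocyte transcription factor, or to TTCNNNGAA, the word bound by STAT5. Both strands were searched, and the 2 words do not overlap.
Cyp3a41a chr5:145720137-145720386, minus strand: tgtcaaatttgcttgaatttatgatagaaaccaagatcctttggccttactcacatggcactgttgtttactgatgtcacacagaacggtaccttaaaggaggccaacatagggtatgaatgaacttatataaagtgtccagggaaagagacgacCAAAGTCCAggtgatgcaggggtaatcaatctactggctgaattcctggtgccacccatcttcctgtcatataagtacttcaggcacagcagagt
Cyp3a16 chr5:145469724-145469973, minus strand: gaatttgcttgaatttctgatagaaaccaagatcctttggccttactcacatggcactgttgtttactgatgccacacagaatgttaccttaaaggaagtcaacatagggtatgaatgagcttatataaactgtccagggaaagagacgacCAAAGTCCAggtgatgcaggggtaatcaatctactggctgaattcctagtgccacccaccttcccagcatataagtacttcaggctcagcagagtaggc
Cyp3a44 chr5:145805875-145806124, minus strand: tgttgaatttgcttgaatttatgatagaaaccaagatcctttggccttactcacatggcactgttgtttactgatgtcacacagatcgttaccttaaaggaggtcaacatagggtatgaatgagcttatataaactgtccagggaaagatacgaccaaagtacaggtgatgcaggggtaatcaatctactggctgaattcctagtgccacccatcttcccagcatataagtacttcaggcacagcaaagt
Cyp2c69 chr19:39886770-39887019, minus strand: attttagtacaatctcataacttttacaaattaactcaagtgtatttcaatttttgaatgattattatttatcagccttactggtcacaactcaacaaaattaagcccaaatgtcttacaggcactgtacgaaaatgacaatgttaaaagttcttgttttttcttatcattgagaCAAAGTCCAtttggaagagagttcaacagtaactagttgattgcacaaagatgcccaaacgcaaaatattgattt
Cyp2c40 chr19:39812815-39813064, minus strand: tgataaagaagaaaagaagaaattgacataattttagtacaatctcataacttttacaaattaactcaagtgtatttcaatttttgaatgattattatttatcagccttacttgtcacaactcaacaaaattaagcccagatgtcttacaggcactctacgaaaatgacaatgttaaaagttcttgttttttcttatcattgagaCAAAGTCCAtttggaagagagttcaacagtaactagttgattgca
A1bg chr15:60921271-60921520, minus strand: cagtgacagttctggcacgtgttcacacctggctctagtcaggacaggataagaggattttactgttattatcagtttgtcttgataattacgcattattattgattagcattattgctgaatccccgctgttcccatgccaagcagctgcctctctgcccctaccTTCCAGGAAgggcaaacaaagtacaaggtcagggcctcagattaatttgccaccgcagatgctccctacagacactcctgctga

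The windows were aligned over their whole length, with gaps and overhanging ends counted as columns that differ. By this count 91.3% of columns were the same in Cyp3a41a and Cyp3a16 and 94.4% in Cyp3a41a and Cyp3a44. It was 77.5% in Cyp2c69 and Cyp2c40 (217 of 280 columns) and 47.9% in Cyp3a41a and Cyp2c69. The Cyp2c69 and Cyp2c40 windows begin at different points of a shared stretch, so overhanging ends lower their share. These shares therefore do not rank the Cyp2c pair against the Cyp3a pairs. CAAAGTCCA was found once each in Cyp3a41a, Cyp3a16, Cyp2c69 and Cyp2c40, beginning 95, 99, 75 and 45 bases before the start. The nearest run in Cyp3a44 differs from it by C7A, counted from the first base of the word, and begins 95 bases before the start. A run with C7A also lies in A1bg, 68 bases before the start. In A1bg a match to TTCNNNGAA begins 84 bases before the start. Of all 27025 RefSeq windows, 0.381% hold CAAAGTCCA and 7.18% hold TTCNNNGAA. The windows at hand for the other named genes of this kind, Sult2a3, Sult2a5 and Cyp2b13, hold neither word, and nor do the 6 at hand for the genes with the largest differences towards males. A match is a description of the letters, not a binding site. Windows were at hand for 168 of the 222 genes higher in females (75.7%), under the 80% needed, so no share over the called genes is given.

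All 7 tested Sult2a genes, sulfotransferases that conjugate bile acids and steroids, were higher in knockout females, beside 1.99% of all tested genes. Sult2a1 stood at 0.52, 0.77 and 15.4 in males and at 418, 271 and 812 in females (log2 difference -7.00, SE 0.72, adjusted p = 0.000268), and Sult2a2 at 0.99, 0.7 and 15.7 in males and 423, 369.5 and 594 in females (log2 difference -6.89, SE 0.66, adjusted p = 0.000173). Knockout male 3 was the highest male in both, and no male reached a female. Sult2a5 had the smallest adjusted p of all tested genes, with 0.16, 0.11 and 1.73 in males and 65.1, 53.1 and 74 in females (log2 difference -5.41, SE 0.28, adjusted p = 3.69e-06). Sult2a3 (log2 difference -5.67), Sult2a6 (-4.25) and Sult2a4 (-4.03) were called as well, and each male lay below each female. Sult2a7 differed least, at 11.1, 7.99 and 19.5 in males against 151, 366 and 112 in females (log2 difference -3.82, SE 0.46, adjusted p = 0.00077). The 7 genes are 7 of the 8 tested genes of chr7:13623967-14493023, a stretch whose ends were set by called genes. Sult3a1, an amine sulfotransferase on another chromosome, stood at 1.0, 0.49 and 9.16 in males and 67.4, 167 and 49.8 in females (log2 difference -4.75, SE 0.64, adjusted p = 0.00178). Sult2a1, Sult2a2, Sult2a3, Sult2a4, Sult2a5, Sult2a6, Sult2a7 and Sult3a1 kept their calls without the traced libraries (adjusted p at most 0.00942).

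Other genes with large differences towards females had unrelated functions. A1bg, which encodes the plasma protein alpha-1-B glycoprotein, stood at 1.64, 1.94 and 55.2 in knockout males and at 869, 685 and 2407 in knockout females (log2 difference -7.22, SE 0.93, adjusted p = 0.00129). Knockout male 3 was the highest male and knockout female 3 the highest female. Hao2, a peroxisomal hydroxy acid oxidase, stood at 2.03, 3.85 and 1.4 in males and 37.6, 26.3 and 51.5 in females (log2 difference -3.54, SE 0.26, adjusted p = 2.89e-05), with knockout male 3 the lowest male. Cyp2b13, a further cytochrome P450, stood at 0.88, 8.18 and 7.07 in males and 273, 292 and 183 in females (log2 difference -5.56, SE 0.48, adjusted p = 9.49e-05). Here knockout male 2 was the highest male. The flavin monooxygenases Fmo2 and Fmo4 were higher in females by less (log2 difference -1.43 and -1.09). Fmo2 lost its call without knockout male 2 or 3 or knockout female 1 or 3 (adjusted p = 0.065 to 0.108). Fmo4 lost its call without knockout male 1 or 3 or knockout female 1 or 3 (adjusted p = 0.095 to 0.132). A1bg, Hao2 and Cyp2b13 stayed called without the traced libraries, and Fmo2 (0.327) and Fmo4 (0.375) did not (adjusted p in brackets).

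**Figure D2:**
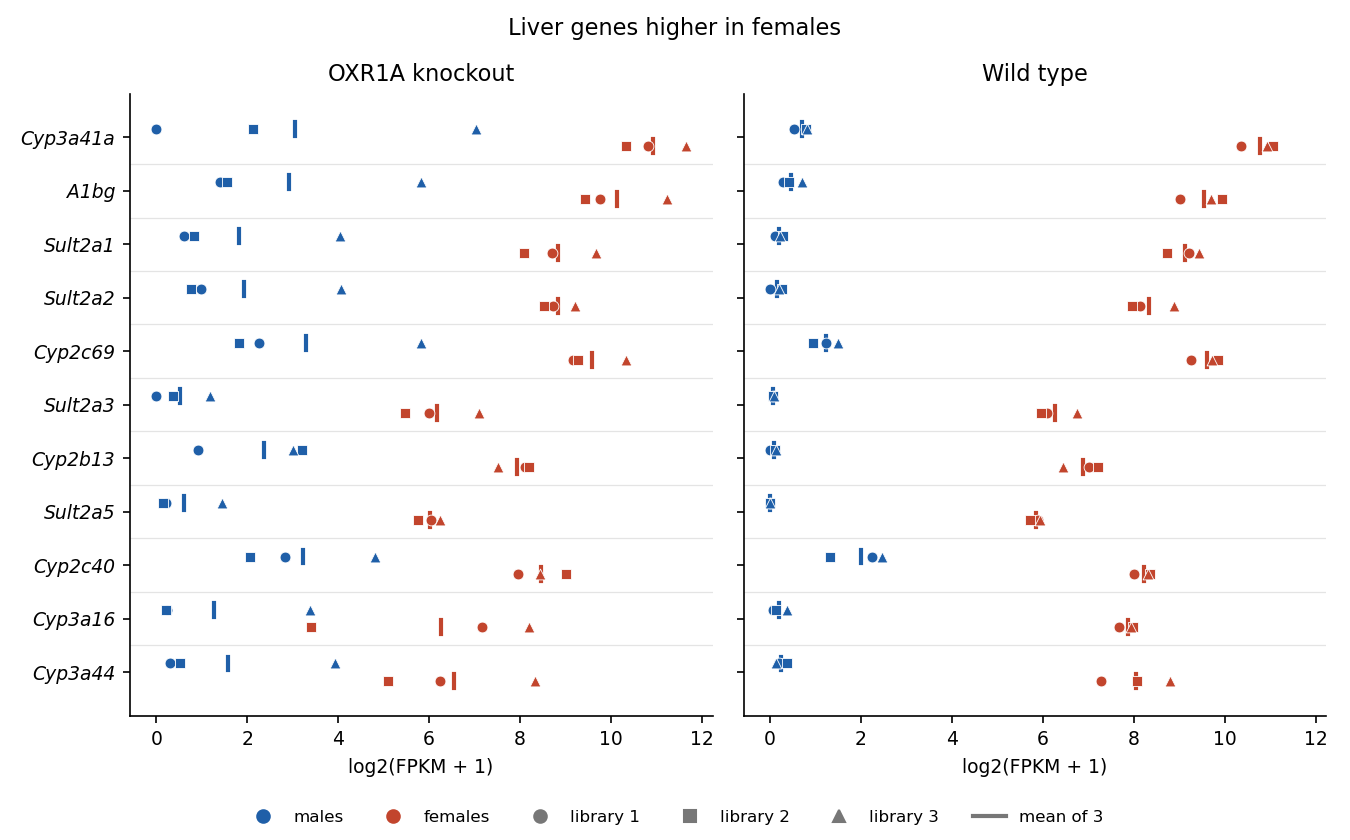
The 11 named genes with large differences towards females, log2(FPKM + 1) in each library (circle, square and triangle for libraries 1, 2 and 3, line for the mean) in the OXR1A knockout and in wild type. Values of the 2 sexes that do not overlap in the knockout were a condition for choosing these genes. Knockout male 3 is the highest male in 10 of the 11.

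The differences of these 11 genes higher in females ran from -7.88 to -4.97. Without the traced libraries they ran from -9.92 to -5.58, were larger in size in 11 of 11 genes and were called in 10. In knockout male 3 these 11 genes stood at 1.58% (Sult2a3) to 9.89% (Cyp3a44) of the female mean, beside 3.21% for Xist. In knockout male 1 they stood at 0% (Cyp3a41a and Sult2a3) to 1.65% (Cyp2c40), and in knockout male 2 at 0.108% (Cyp3a16) to 3.28% (Cyp2b13). Cyp2b13 thus stood higher in knockout male 2 than in knockout male 3 (2.84%).

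A list of 31 tested genes known to be higher in male mouse liver held 15 that were higher in knockout males and 0 that were higher in females, against 1.6% of all tested genes higher in males. The sexes did not overlap in 20 of the 31, beside 22.0% of all tested genes, and the median difference was 1.80. In wild type 28 were called, with a median of 3.04. When the traced libraries were left out, 10 were called, and without single knockout libraries 12 to 22. The members that moved were pheromone carriers, fatty acid and steroid hydroxylases, secreted inhibitors and complement factors.

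Mup genes encode urinary proteins that carry pheromones. Of 20 tested, 5 were higher in knockout males and 3 in females, beside 1.6% and 1.99% of all tested genes. Mup14 (Entrez gene 100039116, GRCm38 chr4:61300037-61304089) stood at 658, 90.3 and 1946 FPKM in males and at 75.5, 1.36 and 0 in females (log2 difference 6.44, SE 1.37, adjusted p = 0.0246). Mup20, the male pheromone darcin, stood at 2336, 1341 and 4174 in males and 180.2, 116 and 51.4 in females (log2 difference 4.51, SE 0.51, adjusted p = 0.000508), and Mup12 at 101, 21.6 and 638 in males and 18.1, 1.72 and 0 in females (log2 difference 4.93, SE 1.16, adjusted p = 0.0378). In all 3 genes knockout male 2 was the lowest male and knockout male 3 the highest, the same order as the Mup share of 1.32%, 3.54% and 7.75% in knockout males 2, 1 and 3. Mup21 and Mup1 were also higher in males (log2 difference 2.29 and 3.42). Mup4, Mup5 and Mup13 were higher in females (log2 difference -1.08, -1.37 and -2.72), with Mup13 at 1.16, 0 and 1.02 in males and at 2.67, 28.6 and 10.4 in females. The members of this family thus moved in both directions. Mup14 lost its call without knockout male 1 or 3 or knockout female 2 or 3 (adjusted p = 0.0813 to 0.0988). Mup12 lost its call without knockout male 1 or 3, knockout female 2 or 3, wild-type male 3 or wild-type female 1, 2 or 3 (adjusted p = 0.0538 to 0.139). Mup1 lost its call without knockout male 1 or 3 or knockout female 1 or 2 (adjusted p = 0.0722 to 0.11). Mup4 lost its call without knockout male 1 or 2 or knockout female 1 or 3 (adjusted p = 0.0694 to 0.098). Mup5 lost its call without knockout male 1 or 2, knockout female 1, 2 or 3, wild-type male 3 or wild-type female 1, 2 or 3 (adjusted p = 0.054 to 0.14). Mup13 lost its call without knockout male 1, 2 or 3 or knockout female 2 or 3 (adjusted p = 0.0569 to 0.0945). Mup21 (0.09), Mup1 (0.181), Mup4 (0.123) and Mup5 (0.0704) lost the call when the traced libraries were left out (adjusted p in brackets), and Mup14, Mup20, Mup12 and Mup13 kept it.

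Among cytochromes P450 higher in knockout males, Cyp4a12a, which makes the vasoactive lipid HETE from arachidonic acid, stood at 145, 85.7 and 168 in males and at 7.08, 0.49 and 0.07 in females (log2 difference 5.78, SE 0.75, adjusted p = 0.00129). Its neighbour Cyp4a12b stood at 8.69, 2.89 and 13.4 in males and 0.81, 0.04 and 0 in females (log2 difference 2.72, SE 0.39, adjusted p = 0.00275). Cyp2d9, a testosterone hydroxylase, stood at 309, 262 and 359 in males and 21.6, 10.1 and 2.24 in females (log2 difference 5.05, SE 0.62, adjusted p = 0.000863). In these 3 genes the sexes did not overlap and knockout female 1 was the highest female. Of the list's 59 tested Cyp genes 7 were higher in males and 16 in females, beside 1.6% and 1.99% of all tested genes. Without the traced libraries the counts were 4 and 12. With the traced libraries left out, Cyp4a12a, Cyp4a12b and Cyp2d9 were still called (adjusted p at most 0.0128).

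Elovl3, an elongase of very long fatty acids, stood at 104, 108 and 211 in knockout males and at 9.46, 4.86 and 1.22 in knockout females (log2 difference 4.71, SE 0.58, adjusted p = 0.000902). Nat8 and Cml5, acetyltransferase genes, stood at 45.2, 34.2 and 38.4 in males against 2.22, 4.19 and 0.99 in females (log2 difference 3.64, SE 0.32, adjusted p = 0.000118) and at 13.8, 16.5 and 12.2 in males against 0.47, 0.54 and 0.04 in females (log2 difference 3.50, SE 0.27, adjusted p = 3.72e-05). Gm4956, a gene model on chromosome 1, stood at 12, 30.7 and 9.33 in males and 0.35, 0.53 and 0.38 in females (log2 difference 3.52, SE 0.37, adjusted p = 0.00032). The male values of these 4 genes lay well above the female ones in all 3 libraries of each sex. Serpina1e, an alpha-1-antitrypsin paralogue, ranged widely among males, at 837, 170.2 and 1381 against 71.2, 24.1 and 29.4 in females (log2 difference 3.94, SE 0.63, adjusted p = 0.00467). Knockout male 2 was again the lowest male. Serpina1d went the other way, at 2296, 2320.0 and 3057 in males and 3995, 3844 and 4141 in females (log2 difference -0.65, SE 0.13, adjusted p = 0.0193). Serpina1d lost its call without knockout male 1 or 2 or knockout female 1 or 3 (adjusted p = 0.0548 to 0.0833). Serpina1d (0.065) lost the call when the traced libraries were left out (adjusted p in brackets), and Elovl3, Nat8, Cml5, Gm4956 and Serpina1e kept it.

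**Figure D3:**
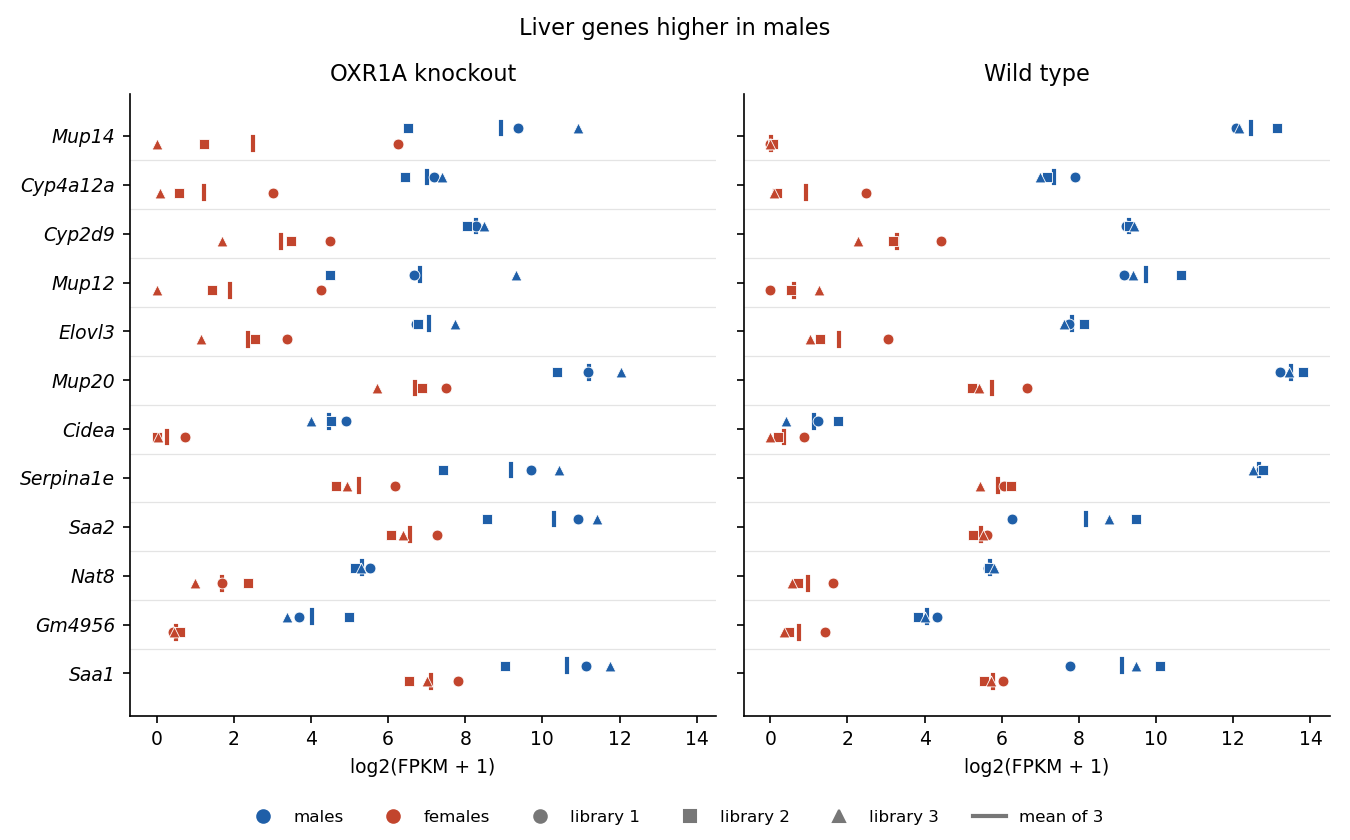
The 12 genes with the largest differences towards males, log2(FPKM + 1) in each library (circle, square and triangle for libraries 1, 2 and 3, line for the mean) in the OXR1A knockout and in wild type. The genes were chosen among those whose sexes do not overlap in the knockout. The values of Mup12, Mup14 and Serpina1e spread most among the knockout males.

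Secreted proteins of the complement system were also among the genes higher in males. C6, a component of the membrane attack complex, stood at 35.7, 22.9 and 43.1 in males and at 10.1, 7.84 and 10.2 in females (log2 difference 1.71, SE 0.21, adjusted p = 0.00087). C8a, a further component of that complex, stood at 302, 69.3 and 229 in males and 44, 55.3 and 18.5 in females (log2 difference 2.21, SE 0.50, adjusted p = 0.0314), with knockout male 2 the lowest male. C4a stood at 7.78, 3.65 and 5.02 in males and 1.47, 1.11 and 1.28 in females (log2 difference 1.46, SE 0.22, adjusted p = 0.00344). Serpina6, the corticosteroid-binding globulin, was higher in females, at 148, 152 and 170.4 in males and 458, 391 and 512 in females (log2 difference -1.52, SE 0.16, adjusted p = 0.000366). Mbl2, a mannose-binding lectin, was higher in females too (log2 difference -0.83). Of 43 tested genes of secreted Mup, serpin and complement proteins, 11 were higher in males and 6 in females. Shares over all tested genes were 1.6% and 1.99%. Without the traced libraries 5 and 2 genes of the list were called. The count of genes higher in males was 19 without knockout male 2, and 6, 6, 7 and 6 without knockout male 1, knockout male 3, knockout female 1 and knockout female 3. The 6 genes higher in females fell to 2 without knockout male 1, knockout male 2 or knockout female 3 and to 3 without knockout female 1. C8a lost its call without knockout male 1 or 3, knockout female 1 or 3, wild-type male 3 or wild-type female 2 (adjusted p = 0.0508 to 0.125). C6 and Serpina6 stayed called without the traced libraries, and C8a (0.263), C4a (0.0659) and Mbl2 (0.0504) did not (adjusted p in brackets).

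The 12 largest differences towards males ran from 3.52 to 6.44. With the traced libraries removed, they ran from 3.29 to 7.32, were larger in 7 of 12 genes and were called in 10. In knockout female 1 these genes stood at 2.01% (Gm4956) to 10.7% (Saa1) of the male mean, beside 2.72% for Eif2s3y. In knockout female 2, which held 0.096% of Eif2s3y, they stood at 0% (Cidea) to 10.7% (Nat8), and in knockout female 3, with Eif2s3y at 0%, at 0% (Mup14 and Mup12) to 6.17% (Saa1). Nat8 and Gm4956 were higher in knockout female 2 than in knockout female 1.

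The size of the sex difference itself differed between knockout and wild type in 3 genes. Cyp2b9, a cytochrome P450 that the liver makes mainly in females, stood at 108, 131 and 38.1 FPKM in knockout males and at 385, 298 and 447 in knockout females (log2 difference -2.17, SE 0.36, adjusted p = 0.00568). In wild type it stood at 1.0, 0.42 and 0.76 in males and at 401, 442 and 448 in females (log2 difference -7.98). The sexes did not overlap in either genotype. All 3 knockout males lay above the wild-type males, and knockout females 1 and 2 lay below the wild-type females. The sex differences differed by 5.8 (SE 0.50, adjusted p = 0.00121). Knockout male 3, the male with a trace of Xist, had the least Cyp2b9 of the knockout males. In all 24 alternatives run for it, Cyp2b9 was called, with adjusted p from 9.82e-07 to 0.00918.

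Slc22a27, an organic anion transporter gene, stood at 8.53, 16.4 and 8.39 in knockout males and at 38.4, 29.4 and 38.9 in knockout females (log2 difference -1.65, SE 0.23, adjusted p = 0.00255). In wild type it stood at 1.79, 0.97 and 1.72 in males and 37.2, 38.2 and 46.7 in females (log2 difference -4.07), and the sex differences differed by 2.43 (SE 0.33, adjusted p = 0.0428). In the knockout alone, the sex difference of Slc22a27 was not called without the traced libraries (adjusted p = 0.0818). All 3 knockout males again lay above the wild-type males, and knockout female 2 lay below the wild-type females. Selenbp2, a selenium-binding protein, stood at 17.7, 17 and 17.5 in knockout males and at 13.9, 11.8 and 13.8 in knockout females, a log2 difference of 0.38 that did not pass (adjusted p = 0.43). The values did not overlap but lay close together. In wild type Selenbp2 stood at 215, 184 and 115 in males and at 28.4, 33.7 and 22.6 in females (log2 difference 2.53). The sex differences of Selenbp2 differed by -2.15 (SE 0.29, adjusted p = 0.0428). Both calls depended on single libraries. In the test between genotypes Slc22a27 was called in 10 and Selenbp2 in 11 of 24 alternatives, and without the traced libraries their adjusted p were 0.14 and 0.205. Slc22a27 kept its call when knockout male 2 or 3 was left out, and Selenbp2 when knockout male 3 or wild-type male 3 was. Leaving out any other single library gave 0.0572 to 0.181 for Slc22a27 and 0.0668 to 0.167 for Selenbp2.

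Genes just short of that test are given as values. Hsd3b5, a steroid-metabolising enzyme of male liver, stood at 1.24, 0.16 and 7.98 in knockout males and at 0.48, 0.23 and 0.05 in knockout females (log2 difference 1.20, SE 0.53, adjusted p = 0.3), and its sexes overlapped. In wild-type males it stood at 80.6, 73.5 and 69.1 and in wild-type females at 0.09, 0.12 and 0 (adjusted p = 0.0629 for the difference between genotypes). Cyp2a4, a steroid hydroxylase higher in females, stood at 1.69, 5.32 and 14.2 in knockout males and at 76.7, 57.6 and 241 in knockout females (log2 difference -4.02, SE 0.60, adjusted p = 0.00316). Wild-type males had 0.15, 0.26 and 0.32 of Cyp2a4 and wild-type females 655, 1036 and 464 (adjusted p = 0.0688 for the difference). Cyp2a22 stood at 14.8, 27.9 and 9.7 in males and 54.4, 42.7 and 76.3 in females in the knockout, against 4.99, 3.98 and 4.83 in wild-type males and 133, 125 and 113 in wild-type females (adjusted p = 0.0629 for the difference). Both knockout groups had levels between those of wild-type males and females for Cyp2a4 and Cyp2a22. Cyp2a4 stayed called without the traced libraries, and Cyp2a22 (0.101) did not (adjusted p in brackets).

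The genes of growth hormone, STAT5 and IGF signalling gave 3 calls in 23 tested genes, all higher in females, beside 1.99% of all tested genes higher in females, and 1 without knockout female 3. Cux2, a transcription factor of female liver, stood at 0.03, 0.03 and 0.19 in knockout males and at 6.55, 1.76 and 6.93 in knockout females (log2 difference -2.34, SE 0.38, adjusted p = 0.00568). Prlr, the prolactin receptor, stood at 65, 41.2 and 46.6 in males and 152, 121 and 199 in females (log2 difference -1.6, SE 0.30, adjusted p = 0.0117). Igfals, which holds IGF in serum complexes, stood at 33.4, 20.7 and 47.6 in males and 57.9, 67.9 and 77.7 in females (log2 difference -1.05, SE 0.25, adjusted p = 0.0378). Bcl6, a repressor that opposes STAT5 and is known as higher in male liver, stood at 23.4, 10.3 and 7.45 in males and at 4.03, 2.08 and 2.03 in females without overlap, and did not pass (log2 difference 1.88, SE 0.63, adjusted p = 0.156). Socs2, a feedback inhibitor induced by growth hormone, stood at 4.41, 2.68 and 11.8 in males and 16.9, 24 and 13.5 in females (log2 difference -1.56, SE 0.54, adjusted p = 0.168). Its groups did not overlap, and it did not pass. The receptor Ghr (log2 difference -0.08, SE 0.11, adjusted p = 0.818), the transducer Stat5b (log2 difference -0.31, SE 0.28, adjusted p = 0.688) and the hormone gene Igf1 (log2 difference -0.36, SE 0.18, adjusted p = 0.376) overlapped between the sexes. Prlr lost its call without knockout female 3 (adjusted p = 0.0519). Igfals lost its call without knockout male 1 or 2, knockout female 1, 2 or 3, wild-type male 1 or 3 or wild-type female 1 or 2 (adjusted p = 0.0501 to 0.138). Cux2 (0.1) and Prlr (0.18) lost the call when the traced libraries were left out (adjusted p in brackets), and Igfals kept it.

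Among 23 tested hormone and nuclear receptors 1 was called, a share near the 3.59% of all tested genes. Nr1d1, the clock repressor REV-ERB alpha, stood at 2.85, 4.94 and 18.2 in knockout males and at 60.2, 42.5 and 33.6 in knockout females (log2 difference -2.57, SE 0.54, adjusted p = 0.023). Knockout male 3 was the highest male. Its relative Nr1d2 stood at 5.04, 5.34 and 9.71 in males and 17.4, 14.8 and 9.81 in females (log2 difference -0.98, SE 0.34, adjusted p = 0.167), and Pparg, a regulator of fat storage, at 14.9, 19.1 and 16.1 in males and 12.7, 12.2 and 9.05 in females (log2 difference 0.53, SE 0.19, adjusted p = 0.189). Neither passed. In the circadian list Nr1d1 was the 1 call of 16 genes. The clock repressor Cry1 stood at 12.5, 8.25 and 5.71 in males and at 2.63, 2.99 and 5.23 in females (log2 difference 1.07, SE 0.34, adjusted p = 0.133). The labels give no time of day for the tissue. Nr1d1 lost its call without knockout male 1 or 2 or knockout female 1 or 2 (adjusted p = 0.0649 to 0.108). Nr1d1 kept its call without the traced libraries (adjusted p = 0.0209).

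Steroid metabolism was split between the sexes, with 4 of 25 tested genes higher in males and 3 in females, beside 1.6% and 1.99% of all tested genes. Cyp17a1, the hydroxylase and lyase of androgen synthesis, stood at 5.7, 14.2 and 10.5 in males and at 44, 46.8 and 90.9 in females (log2 difference -2.47, SE 0.36, adjusted p = 0.00277). Hsd17b12, a ketoacyl reductase also acting on estrone, stood at 123, 135 and 133 in males and 68.4, 84.2 and 71.8 in females (log2 difference 0.80, SE 0.13, adjusted p = 0.00473), and Akr1c19, an aldo-keto reductase, at 61.4, 56.6 and 64.9 in males and 29.5, 31.3 and 35.7 in females (log2 difference 0.90, SE 0.11, adjusted p = 0.000863). The sexes did not overlap in any of the 3, and Cyp17a1 varied most within each sex. Hsd3b2 was higher in males (log2 difference 1.06), as was Hsd17b4 (0.55), a peroxisomal enzyme. Hsd17b6 (-1.62) and Hsd11b1 (-0.53), which regenerates active glucocorticoid, were higher in females. Without the traced libraries 0 and 1 genes of the list were called. The 4 genes higher in males fell to 2 without knockout male 1, knockout female 1 or knockout female 3. The 3 higher in females fell to 1 without knockout male 1, 2 or 3, knockout female 1 or 2 or wild-type female 1. Hsd3b2 lost its call without knockout male 1 or 3 or knockout female 1 or 3 (adjusted p = 0.053 to 0.076). Hsd17b4 lost its call without knockout male 1 or 2, knockout female 1, 2 or 3, wild-type male 3 or wild-type female 1 (adjusted p = 0.0513 to 0.117). Hsd17b6 lost its call without knockout male 1, 2 or 3, knockout female 1 or 2 or wild-type female 1 (adjusted p = 0.0505 to 0.117). Hsd11b1 lost its call without knockout male 1, 2 or 3, knockout female 1, 2 or 3, wild-type male 3 or wild-type female 1 or 2 (adjusted p = 0.0579 to 0.143). Hsd17b12 (0.147), Akr1c19 (0.0553), Hsd3b2 (0.185), Hsd17b4 (0.181), Hsd17b6 (0.218) and Hsd11b1 (0.216) lost the call when the traced libraries were left out (adjusted p in brackets), and Cyp17a1 kept it.

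Of 59 tested conjugation and related detoxification genes, 7 were higher in males and 15 in females, beside 1.6% and 1.99% of all tested genes. The 15 include the Sult2a genes. Gstp1, a glutathione S-transferase, stood at 449, 1409.5 and 726 in males and at 204, 281 and 234 in females (log2 difference 1.70, SE 0.33, adjusted p = 0.0144). Knockout male 2 was the highest male. When the traced libraries were left out, 2 and 10 genes of the list were called, and without knockout male 2, knockout female 1 or knockout female 3 the count of genes higher in males was 4, 2 and 3. Gstp1 lost its call without knockout female 1 or 3 (adjusted p = 0.0519 to 0.0723). Gstp1 was not called without the traced libraries (adjusted p = 0.185).

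Of 30 tested transporters 2 were higher in males and 6 in females, beside 1.6% and 1.99% of all tested genes. Abcg2, an exporter of drugs and urate, stood at 39.9, 41.5 and 35.3 in males and at 11.5, 12.1 and 10.2 in females (log2 difference 1.70, SE 0.12, adjusted p = 2.89e-05), and at 38.5, 29.9 and 33.3 in males and 10.4, 8.91 and 9.07 in females in wild type. The values were alike within each sex. Slc22a26, an organic anion transporter gene, stood at 4.6, 1.27 and 4.95 in males and 91.9, 52.9 and 82.1 in females (log2 difference -4.14, SE 0.37, adjusted p = 0.000118). Slc22a28, in the same run on chromosome 19, was higher in males, at 4.47, 1.12 and 6.72 in males against 0.14, 0.22 and 0.02 in females (log2 difference 1.99, SE 0.36, adjusted p = 0.0111). Slc22a27, which lies between them, was higher in females, so members of 1 run differed in opposite directions. Abcd2, which carries fatty acids into peroxisomes, was higher in females (log2 difference -1.19). With the traced libraries removed, 1 and 1 genes were called. Without knockout male 2 or knockout female 1 the genes higher in females fell to 3, and without knockout male 1 those higher in males to 1. Slc22a28 lost its call without knockout male 1 (adjusted p = 0.0509). Abcd2 lost its call without knockout male 2 or 3 or knockout female 1 or 3 (adjusted p = 0.0572 to 0.105). Slc22a28 (0.138) and Abcd2 (0.225) lost the call when the traced libraries were left out (adjusted p in brackets), and Abcg2 and Slc22a26 kept it.

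Bile acid genes gave 3 calls towards males and 3 towards females among 25, beside 1.6% and 1.99% of all tested genes. Cyp7b1, an oxysterol hydroxylase of the alternative synthesis pathway, stood at 58.9, 39.8 and 91 in males and at 16.9, 17.8 and 14.7 in females (log2 difference 1.80, SE 0.26, adjusted p = 0.00259). Cyp8b1, needed for cholic acid, stood at 246, 248 and 251 in males and 147, 125 and 172 in females (log2 difference 0.75, SE 0.15, adjusted p = 0.0192). Scp2, a peroxisomal thiolase and sterol carrier, stood at 1626, 1543 and 1792 in males and 908, 1050.4 and 813 in females (log2 difference 0.84, SE 0.13, adjusted p = 0.0033). These genes were higher in males without overlap. The uptake carriers Slco1a4 (log2 difference -1.26, SE 0.22, adjusted p = 0.00823) and Slc10a1 (log2 difference -0.60, SE 0.14, adjusted p = 0.0378) and the sterol exporter subunit Abcg5 (log2 difference -0.90, SE 0.20, adjusted p = 0.0314) were higher in females. Without the traced libraries 1 and 0 were called. The 3 genes higher in females fell to 1 without knockout male 1 or 2, knockout female 1 or 2, wild-type male 3 or wild-type female 1. Cyp8b1 lost its call without knockout male 1 or 3 or knockout female 1 or 2 (adjusted p = 0.0544 to 0.0795). Slc10a1 lost its call without knockout male 1 or 2, knockout female 1, 2 or 3, wild-type male 3 or wild-type female 1, 2 or 3 (adjusted p = 0.0523 to 0.149). Abcg5 lost its call without knockout male 1, 2 or 3, knockout female 1 or 2, wild-type male 3 or wild-type female 1 (adjusted p = 0.0509 to 0.116). Cyp7b1 stayed called without the traced libraries, and Cyp8b1 (0.193), Scp2 (0.111), Slco1a4 (0.0518), Slc10a1 (0.0741) and Abcg5 (0.25) did not (adjusted p in brackets).

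Some lipid droplet genes were higher in knockout males. Of 3 tested Cide genes 2 were called and of 4 tested Plin genes 1, beside 1.6% of all tested genes higher in males. The other 3 Plin genes and 1 Cide gene were not called. The lowest differences were -0.25 in the Plin and -0.02 in the Cide family. Cidea, which promotes the fusion of lipid droplets, stood at 28.9, 22.1 and 14.9 in knockout males and at 0.67, 0 and 0.03 in knockout females (log2 difference 4.21, SE 0.36, adjusted p = 9.49e-05). No knockout female exceeded 0.67, and the lowest male was knockout male 3. In wild type Cidea stood at 1.34, 2.39 and 0.32 in males and at 0.82, 0.16 and 0 in females, a log2 difference of 0.77 that did not pass (adjusted p = 0.161). The difference between genotypes was 3.44 and fell short of the threshold (adjusted p = 0.0629). Cidec, a second protein of that family, stood at 20.7, 17.8 and 11 in males and 1.39, 0.7 and 0.56 in females (log2 difference 3.20, SE 0.30, adjusted p = 0.000145), and its wild-type difference of 1.44 passed as well. Plin4, a droplet coat protein, stood at 35.4, 6.27 and 9.1 in males and 3.12, 1.85 and 0.74 in females (log2 difference 2.34, SE 0.49, adjusted p = 0.023), with knockout male 1 far above the other males. Plin4 lost its call without knockout female 2 or 3 (adjusted p = 0.0676 to 0.0922). Plin4 (0.09) lost the call when the traced libraries were left out (adjusted p in brackets), and Cidea and Cidec kept it.

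Further genes of lipid handling moved in both directions. Mogat1, which makes diacylglycerol, stood at 4.37, 5.82 and 3.34 in males and at 0.94, 1.07 and 0.51 in females (log2 difference 1.57, SE 0.25, adjusted p = 0.00465). Fitm1, a protein of droplet formation, stood at 48, 67.1 and 71 in males and 20, 27.5 and 13.5 in females (log2 difference 1.6, SE 0.30, adjusted p = 0.0128), and Apoa4, an apolipoprotein secreted with lipid, at 1318, 1004 and 582 in males and 275, 209.8 and 277 in females (log2 difference 1.86, SE 0.44, adjusted p = 0.038). These 3 genes were higher in males without overlap. The hepatic lipase Lipc stood at 48.3, 53.8 and 62.1 in males and 129, 151 and 127 in females (log2 difference -1.30, SE 0.12, adjusted p = 0.000128), and the lipoprotein receptor Vldlr at 1.03, 1.3 and 0.79 in males and 4.55, 2.32 and 4.09 in females (log2 difference -1.16, SE 0.18, adjusted p = 0.00405). Both were higher in females. Of 43 tested genes of lipid uptake and storage 6 were higher in males and 2 in females. Shares over all tested genes were 1.6% and 1.99%. The list's median was 0.06 beside -0.01 over all genes. When the traced libraries were left out, the counts were 3 and 1, and without knockout female 3 the genes higher in males fell to 3. Fitm1 lost its call without knockout female 1 or 3 (adjusted p = 0.0511 to 0.0519). Apoa4 lost its call without knockout male 1 or 2, knockout female 1, 2 or 3 or wild-type female 1 or 3 (adjusted p = 0.0538 to 0.149). Mogat1 and Lipc stayed called without the traced libraries, and Fitm1 (0.193), Apoa4 (0.134) and Vldlr (0.109) did not (adjusted p in brackets).

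**Figure D4:**
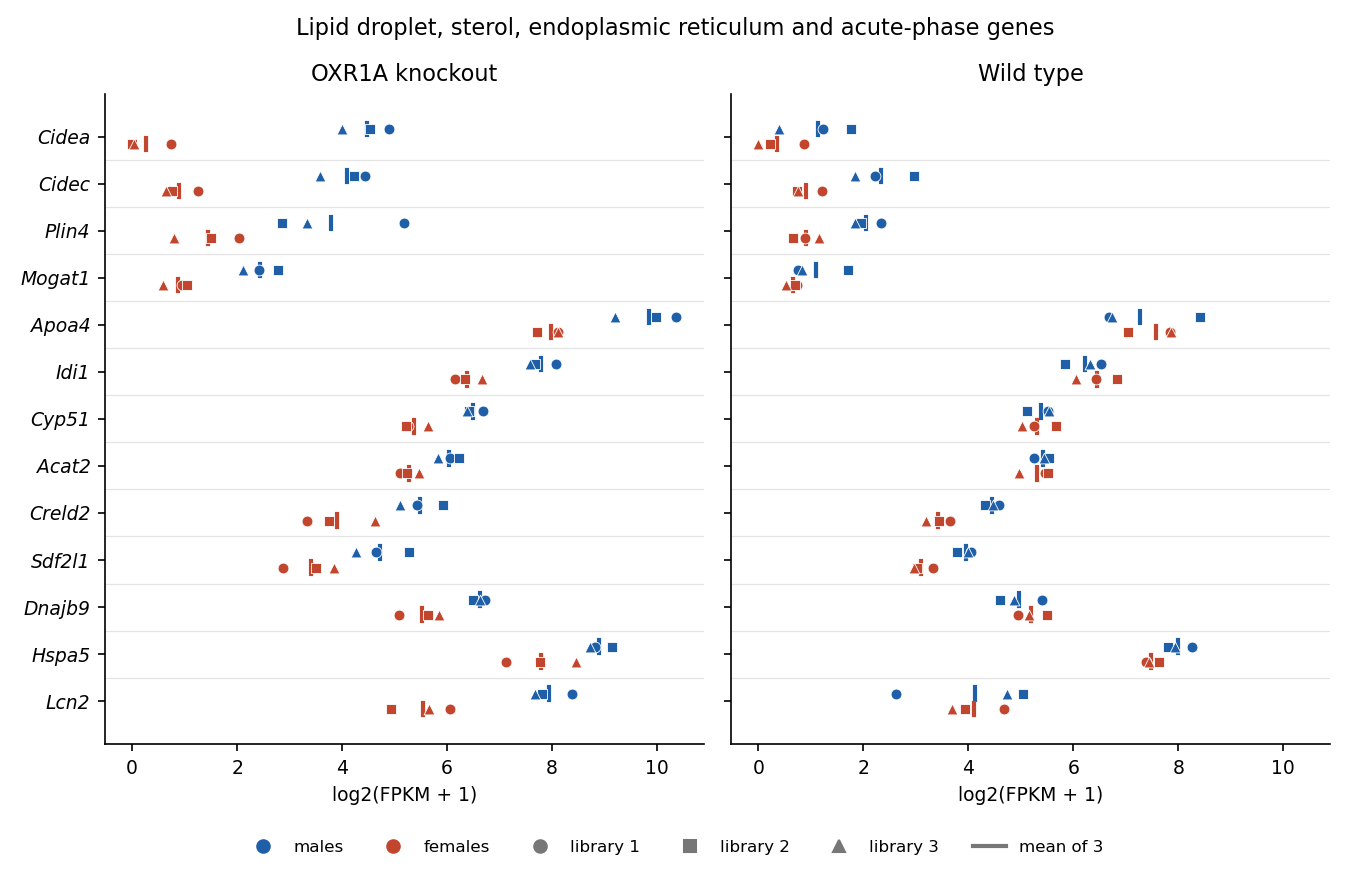
Genes of lipid droplets, sterol synthesis, the endoplasmic reticulum and the acute phase, log2(FPKM + 1) in each library (circle, square and triangle for libraries 1, 2 and 3, line for the mean) in the OXR1A knockout and in wild type. The 13 genes were picked among those called higher in knockout males, so their direction in the knockout follows from the choice. Other genes of these groups were not called or were higher in females. In wild type the sexes overlap in several of the 13, such as Dnajb9 and Apoa4.

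In cholesterol synthesis 20 of 25 tested genes had a difference above 0 in the knockout and 3 were called, all higher in males, beside 1.6% of all tested genes. Idi1, the isopentenyl isomerase, stood at 267, 204 and 191 in males and at 69.5, 79.5 and 101 in females (log2 difference 1.40, SE 0.23, adjusted p = 0.00621). Cyp51, the lanosterol demethylase, stood at 102, 84.3 and 82.1 in males and 37, 36.3 and 48.8 in females (log2 difference 1.12, SE 0.19, adjusted p = 0.00647), and Acat2, a thiolase at the head of the pathway, at 65.7, 73.9 and 55.9 in males and 33.4, 36.6 and 43.4 in females (log2 difference 0.77, SE 0.17, adjusted p = 0.0294). The sexes did not overlap in 13 of the 25 genes, beside 22.0% of all tested genes. The median difference was 0.53, and summed FPKM of the list was 2042 to 2427 in knockout males and 1442 to 1904 in knockout females. In wild type 0 genes were higher in males and 1 in females, with a median of -0.22. The medians over all tested genes were -0.01 in the knockout and -0.21 in wild type. The difference between genotypes did not pass for Idi1 (adjusted p = 0.212) or Cyp51 (0.39). With the traced libraries removed, 0 of the 25 genes were called, and without wild-type male 2 there were 5 higher in males and 1 in females. Acat2 lost its call without knockout male 1 or 2 or knockout female 1 or 2 (adjusted p = 0.0854 to 0.135). Idi1 (0.101), Cyp51 (0.115) and Acat2 (0.185) were not called without the traced libraries (adjusted p in brackets).

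Chaperones and other genes of the unfolded protein response, which raises folding capacity in the endoplasmic reticulum, were higher in knockout males in 7 of 23 tested genes. Over all tested genes 1.6% were higher in males. Creld2, a disulfide isomerase-like protein, stood at 42, 59.3 and 33.4 in males and at 9.09, 12.5 and 23.7 in females (log2 difference 1.58, SE 0.29, adjusted p = 0.0116). Sdf2l1 stood at 24, 37.7 and 18.1 in males and 6.28, 10.3 and 13.4 in females (log2 difference 1.32, SE 0.27, adjusted p = 0.0204), and Dnajb9, a cochaperone, at 105, 88.9 and 98.2 in males and 33.1, 48.5 and 56.1 in females (log2 difference 1.10, SE 0.23, adjusted p = 0.0232). Hspa5, the main chaperone BiP, stood at 451, 562 and 423 in males and 138, 218 and 349.6 in females (log2 difference 1.11, SE 0.27, adjusted p = 0.0432). Knockout female 3 was the highest female in all 4 genes. Manf (log2 difference 1.40), Hyou1 (1.47) and Dnajb11 (0.90) were also called, each with an adjusted p above 0.04. In 21 of the 23 genes the difference lay above 0 and in 14 the sexes did not overlap, beside 22.0% of all genes. The median was 0.64 in the knockout and 0.15 in wild type, beside -0.01 and -0.21 over all tested genes. In wild type 1 gene was called in each direction.

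These calls rested on few libraries. The count of 7 fell to 1 without knockout male 1, knockout female 1 or knockout female 2, to 2 without knockout male 2, to 3 without wild-type male 3 or wild-type female 1 or 2, and to 4 without wild-type female 3. Without the traced libraries 1 gene was called, while the median was 0.70. With median-ratio scaling 10 were called. Sdf2l1 lost its call without knockout male 1 or 2 or knockout female 1 or 2 (adjusted p = 0.0513 to 0.082). Dnajb9 lost its call without knockout male 1 or 3 or knockout female 1 or 2 (adjusted p = 0.0571 to 0.104). Hspa5 and Hyou1 lost their calls without knockout male 1, 2 or 3, knockout female 1 or 2, wild-type male 3 or wild-type female 1, 2 or 3 (adjusted p = 0.0564 to 0.205). Manf lost its call without knockout male 1, 2 or 3, knockout female 1 or 2, wild-type male 1 or 3 or wild-type female 1, 2 or 3 (adjusted p = 0.0535 to 0.116). Dnajb11 lost its call without knockout male 1, 2 or 3, knockout female 1 or 2, wild-type male 3 or wild-type female 1 or 2 (adjusted p = 0.0624 to 0.174). Sdf2l1 stayed called without the traced libraries, and Creld2 (0.0577), Dnajb9 (0.239), Hspa5 (0.237), Manf (0.221), Hyou1 (0.263) and Dnajb11 (0.269) did not (adjusted p in brackets).

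Acute phase proteins, which the liver secretes in inflammation, gave 6 genes of 25 higher in males and 0 higher in females, beside 1.6% and 1.99% of all tested genes. Saa1, a serum amyloid, stood at 2257, 518 and 3469 in males and at 223, 93 and 128 in females (log2 difference 3.52, SE 0.68, adjusted p = 0.0152), and Saa2 at 1939, 376 and 2755 in males and 154, 66.5 and 83.1 in females (log2 difference 3.72, SE 0.81, adjusted p = 0.0269). Knockout male 2 was the lowest male in both. Lcn2, the siderophore-binding lipocalin, stood at 329.8, 222 and 202 in males and 65.7, 29.4 and 49.3 in females (log2 difference 2.40, SE 0.54, adjusted p = 0.0308), and its difference in wild type was 0.03 (adjusted p = 0.973). Orm2, an orosomucoid, stood at 255, 179 and 316 in males and 93.2, 66 and 83 in females (log2 difference 1.59, SE 0.22, adjusted p = 0.00178). The haemoglobin scavenger Hp stood at 3718, 3527 and 3482 in males and 1818, 1658 and 1729 in females (log2 difference 1.04, SE 0.20, adjusted p = 0.013), and the haem scavenger Hpx at 3790.4, 4765 and 4015 in males and 2665, 2639 and 2681 in females (log2 difference 0.65, SE 0.14, adjusted p = 0.0278). In Hp and Hpx the sexes did not overlap. When the traced libraries were left out, 1 gene was higher in males and 1 in females. The count of genes higher in males fell to 2 without knockout male 1, knockout male 3, knockout female 2 or knockout female 3, and to 3 without knockout female 1. Saa1 lost its call without knockout male 1 or 3 or knockout female 2 or 3 (adjusted p = 0.0509 to 0.0674). Saa2 lost its call without knockout male 1 or 3 or knockout female 1, 2 or 3 (adjusted p = 0.0604 to 0.105). Hp lost its call without knockout male 1 (adjusted p = 0.0523). Lcn2 lost its call without knockout male 1, 2 or 3 or knockout female 1, 2 or 3 (adjusted p = 0.0583 to 0.122). Hpx lost its call without knockout male 2 or 3 or knockout female 1, 2 or 3 (adjusted p = 0.0547 to 0.105). Saa1 (0.128), Saa2 (0.218), Lcn2 (0.137), Hp (0.14) and Hpx (0.242) lost the call when the traced libraries were left out (adjusted p in brackets), and Orm2 kept it.

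**Figure D5:**
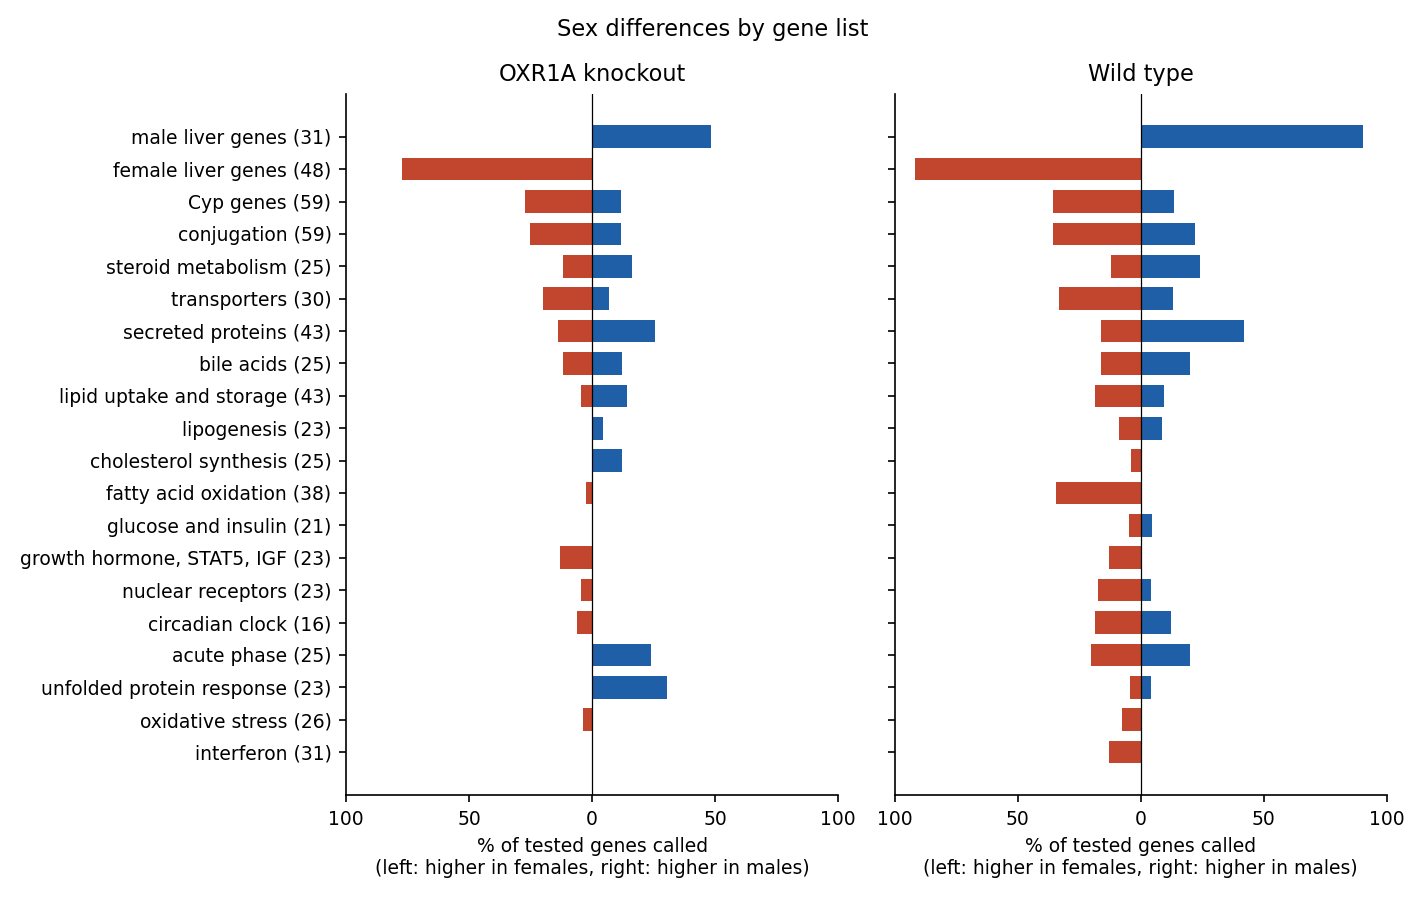
Share of tested genes of each list that were called higher in males (bars to the right) or in females (bars to the left), in the OXR1A knockout and in wild type, with the number of tested genes in brackets. The male and female liver lists hold the largest shares in both genotypes, with 15 of 31 and 37 of 48 genes in the knockout. Of all tested genes in the knockout, 1.6% were higher in males and 1.99% in females. These 2 lists hold genes known to differ by sex and were drawn up with earlier results of these data known. Their large shares therefore follow in part from the choice.

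Several pathways gave few or no calls by limma in the knockout, with shares to be read beside the 1.6% of all tested genes higher in males and 1.99% in females. Lipogenesis had 1 gene of 23 higher in males, Elovl3, with Fads1, a desaturase, at 113, 119 and 118 in males and 182, 143 and 206 in females (log2 difference -0.58, SE 0.15, adjusted p = 0.0624) and Insig2, a brake on sterol regulation, at 97.3, 134 and 92.5 in males and 59.9, 66.5 and 52.1 in females (log2 difference 0.83, SE 0.28, adjusted p = 0.148). Fatty acid oxidation and ketogenesis had 1 gene of 38 higher in females, the peroxisomal thioesterase Acot3, at 12, 5.68 and 12 in males and 63.6, 32 and 76.7 in females (log2 difference -2.40, SE 0.35, adjusted p = 0.00306). The median of that list was 0.05. In oxidative stress 1 gene of 26 was called, Tldc1, a relative of Oxr1 with the same TLDc domain, at 2.11, 2.3 and 1.68 in males and 4.04, 3.77 and 3.23 in females (log2 difference -0.63, SE 0.13, adjusted p = 0.023). Gclc, which limits glutathione synthesis, stood at 211, 197 and 141 in males and 83.1, 86.2 and 96.1 in females (log2 difference 1.02, SE 0.28, adjusted p = 0.0731), and Gpx4, which reduces lipid peroxides, at 319.6, 450.0 and 365 in males and 230.1, 281 and 230.4 in females (log2 difference 0.60, SE 0.19, adjusted p = 0.12). Both had no overlap and did not pass. Without wild-type male 2, 3 genes of this list were called higher in males. In glucose and insulin genes 0 of 21 were called, and 3 had an unadjusted p under 0.05, beside 1727 of all 11166 tested genes. Tldc1 lost its call without knockout male 1 or 3 or knockout female 1 or 2 (adjusted p = 0.0655 to 0.109). Acot3 stayed called without the traced libraries, and Tldc1 (0.351) did not (adjusted p in brackets).

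Of 31 tested interferon genes 0 were called, 0 had an unadjusted p under 0.05, and the sexes overlapped in each. Without knockout male 2, 2 interferon genes were called higher in females. Of 11 tested proliferation genes 1 was called, beside 3.59% of all tested genes. Ccnd1, cyclin D1, was higher in females, at 4.13, 6.1 and 3.76 in males and 12.4, 13 and 27.6 in females (log2 difference -1.65, SE 0.31, adjusted p = 0.0128). Ccnd1 lost its call without knockout male 1 (adjusted p = 0.0539). Ccnd1 was not called without the traced libraries (adjusted p = 0.0595).

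Among genes of the periportal zone of the lobule, 2 of 17 were higher in females, beside 1.99% of all tested genes. Gls2, the liver glutaminase, stood at 55.3, 92.2 and 95.5 in males and at 179.7, 182 and 168 in females (log2 difference -1.16, SE 0.19, adjusted p = 0.00535), and Hal, which degrades histidine, at 80, 70.7 and 78.6 in males and 154, 133 and 139 in females (log2 difference -0.88, SE 0.16, adjusted p = 0.0116). The urea cycle gene Ass1 stood at 841, 1587 and 1294 in males and 2073, 2474 and 1986 in females and did not pass (log2 difference -0.85, SE 0.23, adjusted p = 0.0695). The list summed to 38550 to 41490 FPKM in males and to 52510 to 53980 in females, most of it Alb, at 35762, 32372 and 31719.5 in males and 44111, 44338 and 45904 in females (adjusted p = 0.0991). Without knockout male 2 the periportal count was 4. Of 15 pericentral genes 0 were called, and 3 had an unadjusted p under 0.05, beside 1727 of all 11166 tested genes. Cyp1a2, a caffeine and drug oxidase, stood at 139, 180.3 and 146 in males and 228, 250.4 and 226 in females (log2 difference -0.61, SE 0.20, adjusted p = 0.135). Hal lost its call without knockout female 1 (adjusted p = 0.0604). Gls2 (0.0518) and Hal (0.151) were not called without the traced libraries (adjusted p in brackets).

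Markers of other liver cell types gave 1 call in each of 4 lists and none in the others tested by limma. Of all tested genes 3.59% were called. In bulk tissue, fewer cells of a type and less RNA per cell cannot be told apart. The 17 macrophage genes in the table, 16 of them tested, summed to 415.7 to 979.5 FPKM in knockout males and to 576.3 to 833.6 in females, with 0 called, 0 at an unadjusted p under 0.05 and 0 without overlap. The 16 endothelial genes, 15 of them tested, summed to 182.2 to 203.6 and to 219.4 to 241.6, which do not overlap, and Bmp2, a signal of sinusoidal endothelium, was called at 5.03, 5.09 and 5.04 in males against 8.3, 7.7 and 7.2 in females (log2 difference -0.53, SE 0.13, adjusted p = 0.0423). The 14 stellate and matrix genes, 13 of them tested, summed to 215.4 to 318.4 and to 279.9 to 315.9, with Ecm1, a matrix protein, at 63.4, 81.9 and 65.2 in males and 114, 106 and 102 in females (log2 difference -0.61, SE 0.13, adjusted p = 0.0259). Among 4 tested neutrophil genes S100a8, a calcium-binding protein of granulocytes, stood at 2.53, 1.46 and 1.02 in males and 3.99, 3.96 and 4.13 in females (log2 difference -0.95, SE 0.18, adjusted p = 0.0136). Among 2 tested fat cell markers Cfd, the protease adipsin, was higher in males at 2.11, 2.41 and 1.74 in males against 0.2, 0.21 and 0 in females (log2 difference 1.44, SE 0.19, adjusted p = 0.00178), a low level in each library. The other marker, Adrb3, was not called and its difference lay towards females (log2 difference -0.26, adjusted p = 0.726). Lymphocyte, cholangiocyte, red cell, pancreas and gut lists had 0 calls. Over all 11166 tested genes, 1727 had an unadjusted p under 0.05 by limma. In these lists it was found for 3 of 3 red cell genes, all higher in females. They are the globin genes Hba-a2, Hba-a1 and Beta-s (adjusted p = 0.18 to 0.293), so they are not separate signs of red cells. It was also found for 1 of 5 cholangiocyte and 1 of 2 gut genes, both higher in males. It was found for 0 of 11 lymphocyte genes and 0 of the single pancreas gene. Kidney tubule markers summed to at most 0.11 FPKM in each knockout library, and the 5 gallbladder and gut genes, 2 of them tested, to 99.7 to 147.1 in males and 58.2 to 82.2 in females. The 10 hepatocyte genes summed to 65540 to 69850 in males and to 79910 to 84920 in females, with 0 called and 2 at an unadjusted p under 0.05, both higher in females. Their part in the sex differences above was not tested. Bmp2 lost its call without knockout male 1, 2 or 3, knockout female 1, 2 or 3, wild-type male 1 or 3 or wild-type female 1 or 2 (adjusted p = 0.0509 to 0.179). Ecm1 lost its call without knockout male 1 or 3 or knockout female 1, 2 or 3 (adjusted p = 0.0642 to 0.116). S100a8 lost its call without knockout female 1 or 3 (adjusted p = 0.0523 to 0.0556). Bmp2 (0.366), Ecm1 (0.334) and S100a8 (0.179) lost the call when the traced libraries were left out (adjusted p in brackets), and Cfd kept it.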

How the data were processed

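Liver RNA of 12 libraries was sequenced after oligo(dT) selection and random-primed cDNA synthesis, per the labels' protocols. The authors deposited FPKM values per gene, 1 column per library, per the file headers, with 2 decimals. TopHat2 and the mouse build mm10 are named, with no version or role, per the submitters' processing notes. The quantifier, annotation, read totals and use of strand were not given in the sources at hand, so overlapping and antisense genes may share reads. Depth is unknown in reads. Relative depth was estimated from the steps of low FPKM values. Of 18560 genes, 18502 matched RefSeq GRCm38.p6 for chromosome and position. Autosomal genes were kept where 3 or more of the 12 libraries reached 1 FPKM, 11166 in all, of which 99 passed by at most 0.05 FPKM, and 112 missed by at most 0.05.

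Group means were fitted with limma 3.58.1 (R 4.3.3) to log2(FPKM + 1) over all 12 libraries, which share 1 estimate of the spread, with a variance trend. Tests were two-sided with Benjamini-Hochberg adjustment over the 11166 genes, and a gene was called at an adjusted p under 0.05. Every adjusted p in the text comes from this fit or its alternatives. The test was run first on simulated data. Scripts used Python 3.11.15, and figures were drawn with matplotlib 3.10.9. Alternatives were the pseudocount, the filter, scaling, weights, a replicate block, a length trend and leaving out libraries.

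The members and lists were chosen with earlier results of these data known. Genes named are the 12 largest differences in each direction among called genes whose groups do not overlap, up to 6 in each direction in the test between genotypes, up to 3 members of each list with the smallest p, Oxr1, Xist and Y-linked genes, and family members of the first kind. Of the genes this rule takes, 3 are not reported here. The following were named after their values were seen, some of them family members: Abcd2, Abcg5, Apoa4, Bcl6, C4a, C8a, Cml5, Cyp2a22, Cyp2a4, Cyp2c38, Cyp2c39, Cyp2c68, Cyp3a41b, Cyp4a12b, Cyp8b1, Dnajb11, Fitm1, Fmo2, Fmo4, Ghr, Gstp1, Hpx, Hsd11b1, Hsd17b4, Hsd17b6, Hsd3b2, Hsd3b5, Hspa5, Hyou1, Igf1, Lcn2, Manf, Mbl2, Mogat1, Mup1, Mup13, Mup21, Mup4, Mup5, Plin4, Serpina1d, Slc10a1, Slc22a28, Socs2, Stat5b, Sult2a7, Sult3a1 and Vldlr. The genes that appear first in the closing section were also named after their values were seen.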

Additional observations from a re-analysis of the deposited data

Results flagged for a closer look

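In 3 genes the sex difference of the knockout differed from that of wild type by the test of the difference itself. For Cyp2b9 the sex differences differed by 5.8 on the log2 scale, with -2.17 in the knockout and -7.98 in wild type. For Slc22a27 they differed by 2.43, with -1.65 and -4.07. For Selenbp2 they differed by -2.15, with 0.38 and 2.53. The adjusted p from limma was 0.00121 for Cyp2b9 and 0.0428 for the other two. Groups of 3 are too small for the check of single outlying samples.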

How the results depend on the processing

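With other scaling, pseudocounts and filters the knockout count ran from 312 genes (mean FPKM of at least 5) to 478 (length trend removed). The numbers tested differed, with 312 of 6430, 478 of 10747 and, with no filter on low values, 336 of 17828, beside 401 of 11166. These counts therefore do not rank the filters. The knockout count was 198 (86 higher in males, 112 in females) with only the 6 knockout libraries fitted, 636 (284 and 352) with array weights, and 114 (52 and 62) without the traced libraries. Leaving out 1 library gave 186 to 602 (87 to 274 and 99 to 328). The wild-type count was 871 of 6430 tested genes at a mean FPKM of at least 5 and 511 of 11166 without the traced libraries, and 646 to 2010 with 1 library left out. The test between genotypes gave 5 genes with a pseudocount of 0.1, 8 with median-ratio scaling, 1 with FPKM rescaled without Mup, 10 with array weights, 10 with the length trend removed, and 1 to 22 with 1 library left out. In the knockout, same-numbered males and females deviated from their group means with correlations of 0.403, -0.122 and -0.322. For differently numbered samples the correlations ran from -0.334 to 0.42. So few values cannot settle whether the numbers pair the samples, and the labels do not say. A replicate block gave 331 knockout genes (145 and 186) and 5 in the test between genotypes. Of 168 genes followed, 117 were called, 41 of them in all 25 alternatives and 6 in the 24 that could be run for them, and in 0 called genes did the sign turn. Signs turned in 3 genes that were not called. Lgals4 was 0.15 with array weights and 0.24 without the traced libraries. With 1 library left out, Lgals4 ran from -0.47 to 0.199, Cela1 from -0.42 to 0.0011 and Ghr from -0.15 to 0.0101. The cause was not tested. Read depth is unknown, so no floor can be given for genes listed at 0.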

Other observations

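Of the 401 genes called between knockout males and females, 277 belonged to none of the lists, 123 higher in males and 154 higher in females. Mtnr1a, a melatonin receptor, stood at 4.45, 3.5 and 3.75 FPKM in males and at 0.3, 0.38 and 0.2 in females (log2 difference 1.92, SE 0.11, adjusted p = 6.88e-06). BC089597 stood at 49.6, 34 and 54.4 in males and 212, 175 and 215 in females (log2 difference -2.12, SE 0.17, adjusted p = 5.21e-05). Aldh1a1, which makes retinoic acid, stood at 1726, 1546 and 1384 in males and 543, 754 and 547 in females (log2 difference 1.35, SE 0.16, adjusted p = 0.000863). Eci3, an enoyl isomerase of fatty acid oxidation, stood at 0.03, 0 and 0.7 in males and 8.05, 7.45 and 22.1 in females (log2 difference -3.33, SE 0.35, adjusted p = 0.000284), and Agxt, which detoxifies glyoxylate, at 78.7, 81.4 and 118 in males and 265, 252 and 253 in females (log2 difference -1.49, SE 0.17, adjusted p = 0.000527). These genes were picked after their values were seen. With the traced libraries left out, Mtnr1a, BC089597, Aldh1a1, Eci3 and Agxt were still called (adjusted p at most 0.0297).

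Called genes lay side by side in places. With gaps of at most 500000 bases, 18 runs of at least 3 called genes held 72 of the 401 (18%). Each run begins and ends at a called gene, so a high share of called genes within it follows from its definition. Whether called genes lie closer together than other tested genes was not tested. Beside the Cyp2c, Sult2a and Cyp3a runs, 5 of 6 tested genes of chr7:26061388-26939413 were higher in females, among them Cyp2b13, Cyp2b9, Cyp2a4 and Cyp2a22. In the Mup run chr4:60498012-61304089, 3 genes were higher in males and 1 in females. In chr11:95384856-95842476, 4 of 7 tested genes (Slc35b1, Spop, Phospho1 and Abi3) were higher in males.

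Of the called genes, 61 higher in males and 45 higher in females were not called in wild type, and 52 and 42 of them had the same sign there. Whether they differ between genotypes was tested with the other genes, where 3 genes in all were called (1018 at an unadjusted p under 0.05).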
